A study of Mus musculus with 2 samples.

Results

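The Mir379 to Mir410 cluster is a run of miRNA hairpin genes on the plus strand of mouse chromosome 12, inside the imprinted Dlk1-Dio3 domain. Its members were taken by position alone: every miRNA gene that GENCODE M21 annotates on that strand in a fixed window around the Mirg gene in the mm10 assembly. This rule found 39 of the 2202 annotated miRNA genes, from Mir379 through Mir410 to Mir3072, in a span of 38.901 kb (chr12:109709060-109747960). No measured value was used to choose them.

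Reads came from microRNA sequencing of whole hearts of 2 male B6CASTF1/J mice at an age of 4 days, which are F1 offspring of C57BL/6J and CAST/EiJ parents, with no treatment or engineered allele given in the labels. There was 1 library per animal, called replicate 1 and replicate 2 as in the labels, and both belong to a single group. The labels number the animals male 03 and male 04 under 1 donor identifier; they were taken as separate animals, and otherwise the spread between libraries is technical. The labels state no comparison of conditions, so the questions were how the cluster is represented in neonatal heart and how far the libraries differed.

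Imprinted genes are transcribed from only the maternal or only the paternal chromosome. The miRNAs of this cluster, like the long non-coding RNAs Meg3, Rian and Mirg that precede or contain them, are known to be made from the maternal chromosome, and the cluster is found only in placental mammals. By the usual naming of crosses C57BL/6J would be the maternal strain here, but alleles were not separated. The hairpins are cut from long precursor transcripts, and each gives a 5p and a 3p mature miRNA, of which bases 2 to 8, the seed, largely decide which messenger RNAs are bound. The cluster is known from brain, where several members act at dendrites and synapses, and from muscle, where MEF2 transcription factors activate it. In mice its deletion impairs the metabolic adaptation of newborns.

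Mature sequences are given from RefSeq (GRCm38.p6) for the members with the most reads and for arms that share a seed, with the seed in capitals. Of the 39 members, 38 matched an entry, with 71 mature miRNAs and 65 distinct seeds. For Mir376c, Mir487b, Mir539, Mir485 and Mir453 the entries held a single arm, so seeds of any other arm are not among these. The 5 members with the most reads are shown first, because they hold most of the cluster's counts.
miR-379-5p: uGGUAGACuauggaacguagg
miR-379-3p: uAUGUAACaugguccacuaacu
miR-411-5p: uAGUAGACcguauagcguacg
miR-411-3p: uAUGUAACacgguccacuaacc
miR-541-5p: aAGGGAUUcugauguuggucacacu
miR-541-3p: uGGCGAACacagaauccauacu
miR-487b-5p: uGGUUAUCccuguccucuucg
miR-382-5p: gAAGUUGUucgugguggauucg
miR-382-3p: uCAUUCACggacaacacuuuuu
Mir379 and Mir411, the first hairpins of the cluster, are close relatives. Their 3p arms share the seed AUGUAAC and differ by U10C and U22C, with the miR-379 base first and positions counted from 1 at the 5′ end. Their 5p arms differ at 7 of 21 positions, including G2A in the seed.

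The other seeds shared among the arms with an entry each joined a pair of members. The seed GGUAGAC joined miR-379-5p, above, with miR-1193-5p. The miR-376c and miR-376b 5p arms shared UGGAUAU, and those of Mir494 and Mir410 shared GGUUGUC. The 5p arms of Mir1197 and Mir758 shared GGUUGAC, and miR-453 and miR-496a-5p shared GGUUGCC. These arms are shown because the seed is the stretch that pairs with targets.
miR-1193-5p: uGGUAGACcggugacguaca
miR-376c-5p: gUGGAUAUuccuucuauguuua
miR-376b-5p: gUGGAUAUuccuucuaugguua
miR-494-5p: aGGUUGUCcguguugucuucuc
miR-410-5p: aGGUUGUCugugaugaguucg
miR-1197-5p: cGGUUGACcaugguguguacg
miR-758-5p: uGGUUGACcagagagcacacg
miR-453: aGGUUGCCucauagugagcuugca
miR-496a-5p: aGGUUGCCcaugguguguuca
With AUGUAAC these were 6 shared seeds among the arms with an entry, each in 2 members. Arms without an entry could share further seeds. The 376 arms differ by U19G only, outside the seed, with the miR-376c base first.

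Near-identical arms can also carry different seeds, as in 3 other pairs of relatives.
miR-376a-3p: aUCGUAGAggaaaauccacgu
miR-376b-3p: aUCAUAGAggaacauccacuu
miR-381-3p: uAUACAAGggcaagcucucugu
miR-300-3p: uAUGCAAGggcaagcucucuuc
miR-543-3p: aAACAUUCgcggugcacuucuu
miR-495-3p: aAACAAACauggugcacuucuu
The pair miR-376a-3p and miR-376b-3p differ by G4A, A13C and G20U, so that 1 of the 3 changes lies in the seed. For miR-381-3p and miR-300-3p the changes are A4G, G21U and U22C, again with 1 in the seed. For miR-543-3p and miR-495-3p they are U6A, U7A, G9A and C10U, with the first name's base first in each. A gene's count in the deposited tables combines both arms of its hairpin, so none of the levels below says which arm was sequenced.

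The cluster held 66354 of the 4196577 sense counts of replicate 1 and 65326 of the 3801738 of replicate 2. Sense counts are reads on the gene's own strand that were assigned to a single gene. The cluster's share was thus 1.58% in replicate 1, with a 95% Wilson interval of 1.57 to 1.59%, and 1.72% in replicate 2, with an interval of 1.71 to 1.73%. Its mean was 1.65% ± 0.097 (SD, n = 2). The shares differed by more than counting error, which is all these intervals cover, since PCR copies were not marked. Multi-mapped reads, 38.1% and 42.3% of all reads accounted for, are in neither number.

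Most annotated members were detected. Of the 39, 33 (84.6%) had 10 or more counts in each library, against 15.6% of all annotated miRNA genes. Mir758 had 0 and 8 counts in replicates 1 and 2, Mir544 had 4 and 0, Mir1197 had 3 and 0, and the unnamed hairpin Gm27379 had 0 and 1. Mir654 and Mir453 had 0 counts in both libraries, which allows up to 3 counts, or 0.715 and 0.789 CPM (sense counts scaled to a library total of 1000000). The other 33 members had a mean level of 12.1 CPM (Mir3072) to 4147 CPM (Mir379), with a median of 94.3 CPM. Over all 441 genes with 10 or more counts over both libraries the median was 35.0 CPM. A mature miRNA gives a read whatever the length of its hairpin, so levels are reads per hairpin and were not divided by length; a bias of the library method between miRNAs that recurs in both libraries was not tested.

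A few genes made up most of the cluster. Mir379, which opens it (chr12:109709060-109709125, intergenic), had 3650 CPM in replicate 1 and 4644 CPM in replicate 2. It ranked 40 and 34 among all miRNA genes. Mir411, 1.115 kb downstream and also intergenic (chr12:109710175-109710256), had 2857 and 4018 CPM. Both were higher in replicate 2, and in each library Mir379 stood above Mir411, although their means of 4147 ± 703 and 3438 ± 821 CPM (SD, n = 2) have overlapping spreads.

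Mir541, in an intron of the non-coding RNA gene Mirg (chr12:109742409-109742498), had 2522 and 2533 CPM. Scaled to total counts it was the steadiest of the abundant members, with a mean of 2527 ± 8.11 CPM. Its ratio depended on the scaling, as given below. Mir487b, one of the cluster's miRNAs whose inhibition is reported to improve blood flow recovery in mice, had 1359 and 1647 CPM (chr12:109727333-109727414, intergenic). Mir382, in an exon of Mirg (chr12:109733771-109733846), had 963 and 1033 CPM. Mir409, in a Mirg intron, followed with 591 and 446 CPM. The order of these 6 genes was the same in both libraries.

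Below them the order changed from library to library. Mir154, in a Mirg intron, had 583 CPM in replicate 1 and 278 CPM in replicate 2. Mir134, in a Mirg exon and known in neurons for limiting dendritic spine size, had 444 and 390 CPM. Mir299a had 452 and 238 CPM, and Mir376a had 287 and 343 CPM, both from intergenic hairpins. In replicate 1 Mir154 stood highest of these 4 and Mir376a lowest; in replicate 2 Mir134 stood highest and Mir299a lowest. Mir381, with 458 and 100 CPM, ranked 108 and 162 among all miRNA genes.

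The shares of the cluster's own counts show the same concentration. Mir379, Mir411 and Mir541 took 57.1% of them in replicate 1 and 65.2% in replicate 2, a mean of 61.1% ± 5.69 (SD, n = 2). With Mir487b and Mir382 the share was 71.8% and 80.8%, and the 10 most abundant members took 86.7% and 90.6%. The bars of the cluster's make-up show replicate 2 as the more concentrated library.

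**Figure D1:**
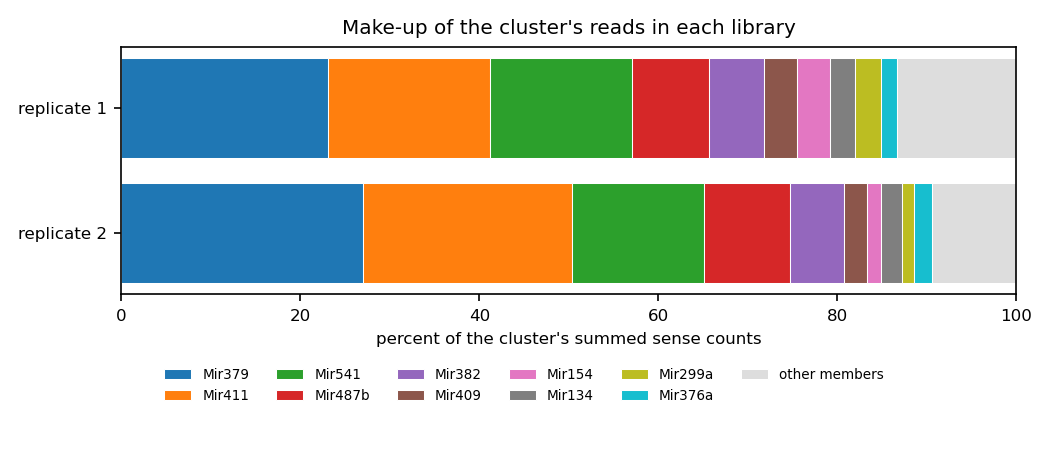
Percent of the cluster's summed sense counts (x axis) held by each of the 10 members of highest mean level and by all other members together, with 1 bar per library. Mir379 and Mir411 take more of replicate 2 (27.0% and 23.4%) than of replicate 1 (23.1% and 18.1%), while Mir154 takes 3.69% of replicate 1 and 1.61% of replicate 2.

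High and low members were interspersed along the cluster. Across the 33 detected members, level had a Spearman rho of -0.19 and a Pearson r of -0.12 with distance from Mir379, given as a description, since the members share their libraries. Mir379 and Mir411 lie at the start, Mir487b near the middle and Mir541 near the end, with members under 100 CPM between them. Mir1197, within 3.257 kb of Mir379 on the same strand, had 3 and 0 counts. The 25 hairpins before the annotated start of Mirg, all intergenic in this annotation, held 63.6% of the cluster's counts in replicate 1 and 69.8% in replicate 2. The 14 within Mirg held 36.4% and 30.2%. Of those 14, the 9 in exons held 12.7% and 11.1%, and the 5 in introns, led by Mir541, held 23.7% and 19.1%. The share within Mirg was thus lower in replicate 2, beyond the Wilson intervals of 36.0% to 36.7% and 29.9% to 30.6%.

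**Figure D2:**
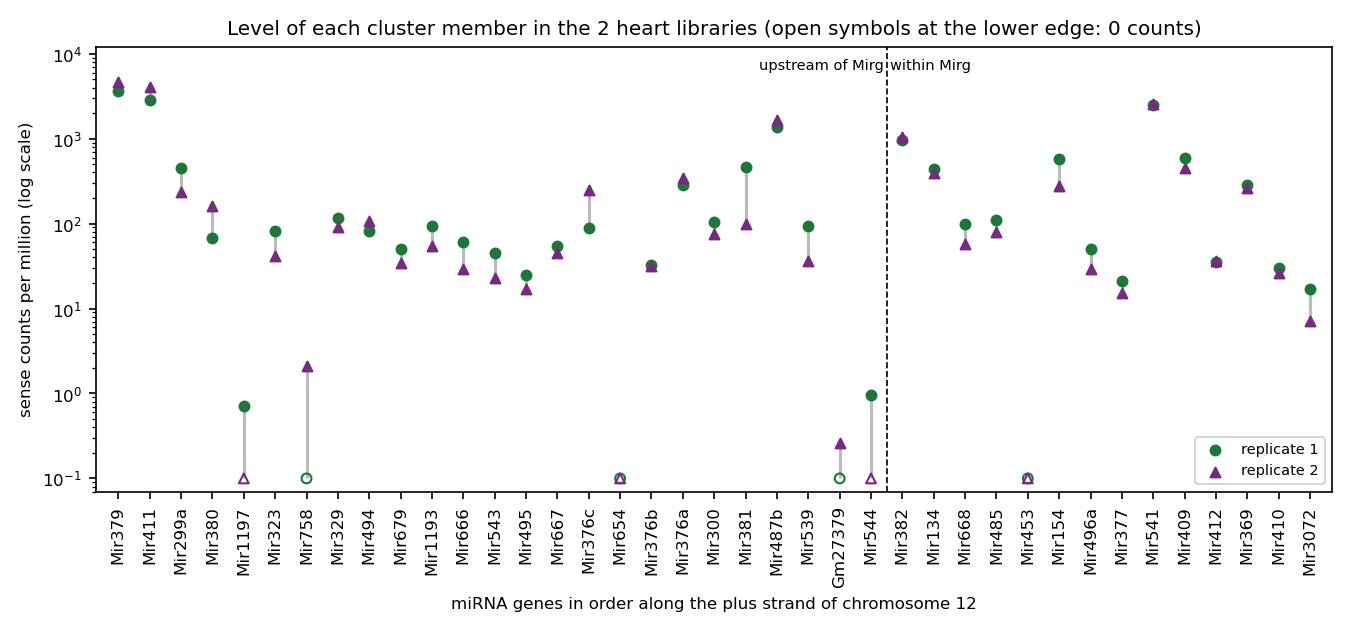
Sense CPM (log scale) of all 39 members in replicate 1 (circles) and replicate 2 (triangles), in their order along chromosome 12; grey lines join the libraries, open symbols mark 0 counts, and the dashed line marks the start of Mirg. Levels span from 0 counts (Mir654, Mir453) to 4644 CPM (Mir379), and high and low members are interspersed along the cluster.

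The 20 miRNA genes upstream of the cluster in the same domain, taken by position from Mir1906-1 to Mir882 (chr12:109544541-109682273), held 0.899% and 0.936% of sense counts. Their 3 most abundant genes were Mir127 with 4849 and 5849 CPM, Mir431 with 1141 and 1289 CPM and Mir337 with 677 and 596 CPM. Mir127 and Mir431 lie antisense to the retrotransposon-derived gene Rtl1 and are known to be made, like the cluster, from the maternal chromosome. The cluster held 1.76 times the counts of the upstream genes in replicate 1 and 1.84 times in replicate 2. Mir127 was more abundant than any cluster member in both libraries.

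The libraries were then compared gene by gene. A two-sided Fisher's exact test set each gene's counts against the rest of its library, with Benjamini-Hochberg adjustment over the 441 tested genes and a threshold of 0.05. The test allows for counting error alone, and what it compares are 2 libraries, not conditions. All ratios are log2 of CPM + 1 in replicate 2 minus replicate 1, with a standard error from counting only.

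Of the 33 tested members, 26 (78.8%) differed between the libraries, where 56.9% of all tested genes did. They were 8 higher in replicate 2 (24.2%, against 20.4% of all tested genes) and 18 lower (54.5%, against 36.5%). The median log2 ratio was -0.41 over the tested members, -0.26 over all tested genes and -0.59 over the 14 tested upstream genes. The SD of the ratios was 0.72 among members, 0.81 among all tested genes and 0.69 among upstream genes. Members and upstream genes thus both had a median below that of all tested genes, and neither had a wider spread. Members also had more counts than the usual tested gene (median 94.3 against 35.0 CPM), and smaller differences pass at higher counts.

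The members did not move as a unit. The largest positive ratios belonged to Mir376c and Mir380 and the largest negative one to Mir381, all intergenic hairpins before Mirg. Mir376c had 377 counts (89.8 CPM) in replicate 1 and 939 (247 CPM) in replicate 2, a log2 ratio of 1.45 ± 0.09 (counting SE). Mir380 had 287 and 618 counts (68.4 and 163 CPM), a log2 ratio of 1.24 ± 0.10. Their adjusted p-values by Fisher's exact test were 1.1e-67 and 1.1e-35. Mir381 had 1923 counts (458 CPM) in replicate 1 and 381 (100 CPM) in replicate 2, a log2 ratio of -2.18 ± 0.08 with an adjusted p of 4.4e-214 by Fisher's exact test. Mir376c and Mir381 lie on the same strand in the stretch before Mirg and differed in opposite directions.

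Among called members with a mean count of 100 or more, the next lowest ratios were those of Mir539, Mir154 and Mir666. Mir539, an intergenic hairpin, had 92.9 and 36.0 CPM, a log2 ratio of -1.34 ± 0.14. Mir154 had 2446 and 1055 counts, a log2 ratio of -1.07 ± 0.05. Mir666, also intergenic, had 61.0 and 28.9 CPM, a log2 ratio of -1.05 ± 0.16. By Fisher's exact test all 3 passed as lower in replicate 2. The 14 other members that passed as lower were Mir299a, Mir323, Mir329, Mir679, Mir1193, Mir543, Mir495, Mir300, Mir134, Mir668, Mir485, Mir496a, Mir409 and Mir3072. Their log2 ratios ran from -1.16 ± 0.33 (Mir3072, with 72 and 27 counts) to -0.19 ± 0.05 (Mir134).

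The other members higher in replicate 2 included the most abundant ones. Mir411 had a log2 ratio of 0.49 ± 0.02 and Mir379 of 0.35 ± 0.02. Mir494, a miRNA studied for its effect on heart muscle survival after loss of blood flow, had 81.5 and 108 CPM, a log2 ratio of 0.41 ± 0.11. Mir487b, Mir376a and Mir382 completed the group with log2 ratios of 0.28 ± 0.03, 0.26 ± 0.06 and 0.10 ± 0.03. Differences this small passed because the counts are high. Mir541, with a log2 ratio of 0.01 ± 0.02, did not pass, and its adjusted p by Fisher's exact test was 0.82. The 6 other members that did not pass, Mir667, Mir376b, Mir377, Mir412, Mir369 and Mir410, had log2 ratios from -0.43 ± 0.24 (Mir377) to 0.04 ± 0.17 (Mir412).

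**Figure D3:**
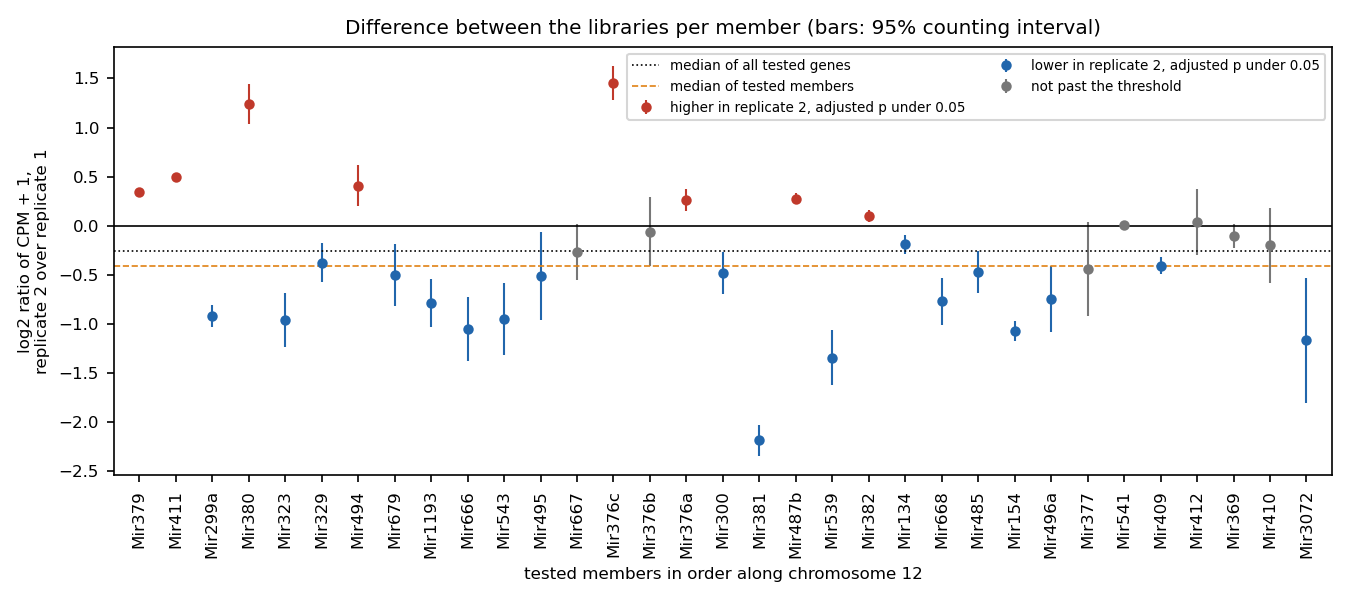
Log2 ratio of CPM + 1, replicate 2 over replicate 1, for the 33 tested members in their order along chromosome 12; bars are 95% counting intervals, colours give the call by Fisher's exact test, and horizontal lines give the medians of tested members (-0.41) and of all 441 tested genes (-0.26). Mir376c (1.45), Mir380 (1.24) and Mir381 (-2.18) stand furthest from the medians, and the 18 lower members are spread along the cluster.

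The more abundant members had the higher ratios. All 3 called members with a mean of 1000 CPM or more (Mir379, Mir411 and Mir487b) were higher in replicate 2, and the other member at that level, Mir541, did not pass. Of all tested genes at that level, 50.7% were higher and 43.8% lower. Of the 11 members from 100 to 1000 CPM, 4 were higher (36.4%, against 26.0% of all tested genes there) and 6 lower (54.5%, against 62.0%). Of the 18 below 100 CPM, 1 was higher (Mir494, 5.56%, against 10.1%) and 12 lower (66.7%, against 67 of 268 of all tested genes there). All tested members in the lowest class had a mean of 12.1 CPM or more, where all tested genes reached down to 1.19 CPM. The median log2 ratios of these 3 level classes were 0.31, -0.19 and -0.51 among members and 0.02, -0.27 and -0.32 among all tested genes. A similar order of levels was therefore present in the whole table. Over the 33 members the Spearman rho of level with ratio was 0.44 and Pearson's r was 0.34, as a description only.

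**Figure D4:**
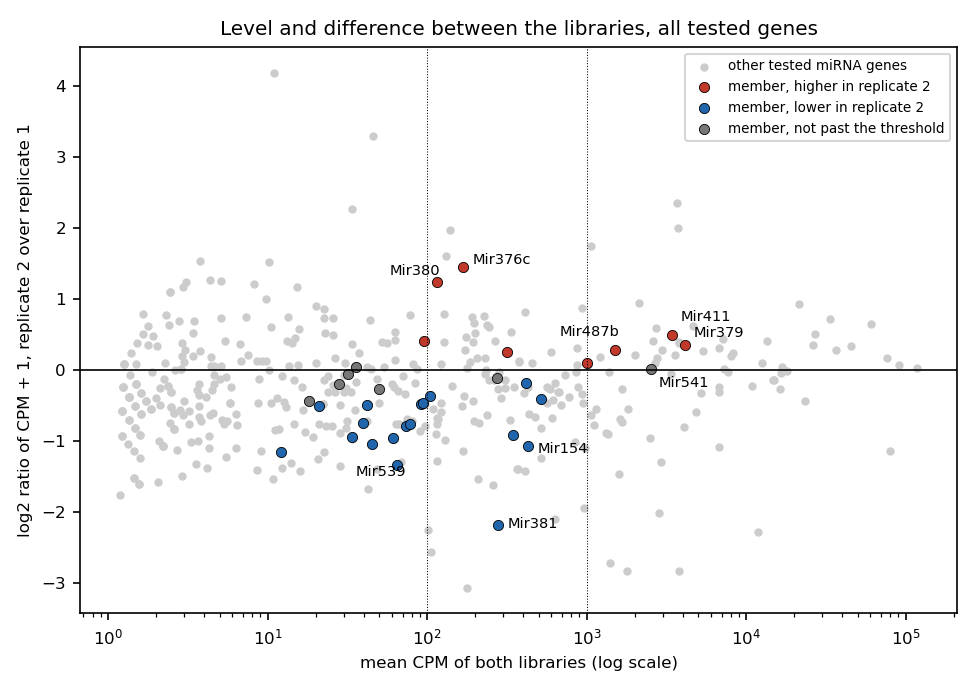
Log2 ratio of CPM + 1, replicate 2 over replicate 1 (y axis), against mean CPM of both libraries (x axis, log scale) for the 441 tested miRNA genes; members are coloured by call, other genes are grey, and dotted lines mark 100 and 1000 CPM. Of the 18 members below 100 CPM, 12 were lower in replicate 2 (67 of the 268 tested genes there were), and Mir379, Mir411 and Mir487b above 1000 CPM were higher (50.7% of all tested genes there were).

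These opposite movements left the cluster's sum slightly higher in replicate 2, with a log2 ratio of 0.12, while the median member was lower. The sum rested on the most abundant genes: without Mir379, Mir411 and Mir541 its log2 ratio was -0.18. This setting was added after the values were seen. For the upstream genes the log2 ratio of the sum was 0.06, with a median of -0.59. In bulk tissue, fewer cells that make a miRNA and less of it per cell cannot be told apart.

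Direction also depended on how the libraries were scaled. TMM scaling (trimmed mean of M-values) shifted log2 ratios up by 0.24, and DESeq2's size factors by 0.31. With TMM scaling and an exact binomial test, 22 of the 33 members differed, 10 higher and 12 lower, where 54.4% of all tested genes differed, 28.1% higher and 26.3% lower. With DESeq2's size factors 22 members differed as well, 11 higher and 11 lower, where 54.4% of all tested genes differed, 30.8% higher and 23.6% lower. Mir134, Mir369, Mir410 and Mir376b changed sign with TMM scaling. Mir541, with a log2 ratio of 0.25, and Mir369, with 0.14, were then called higher in replicate 2. Mir134, called lower by total counts, was called higher with DESeq2's size factors (log2 ratio 0.12). Mir329, Mir679, Mir495, Mir300 and Mir485, lower by total counts, passed with neither of these scalings, and Mir409 did not pass with DESeq2's.

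With the cluster's own summed counts as the library size, ratios compare members with each other and move by -0.12. By an exact binomial test on this scale 29 members changed their share of the cluster, 7 higher and 22 lower, where 58.7% of all tested genes differed, 16.6% higher and 42.2% lower. The 7 were Mir379, Mir411, Mir380, Mir494, Mir376c, Mir376a and Mir487b, all upstream of Mirg. None of the 13 tested members within Mirg was higher on this scale: 10 were lower and 3 did not pass. Of the 20 tested before Mirg, 7 were higher, 12 lower and 1 did not pass. Shares within the cluster are not independent. Mir379 and Mir411, both before Mirg, took 23.1% and 18.1% in replicate 1 and 27.0% and 23.4% in replicate 2. Their rise lowers the shares of the other members as a set. Mir382 had a log2 ratio of 0.10 by total counts and -0.019 within the cluster.

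Spread beyond counting error was larger than these tests allow for. The common dispersion from edgeR was 0.143, which corresponds to a coefficient of variation of 0.378 between the libraries. It was estimated on the 344 genes that reached 10 counts in both libraries and was applied to all 441 tested genes. With edgeR's exact test at that spread 0 members passed the adjusted threshold, and 2 members, Mir376c and Mir381, had an unadjusted p under 0.05. Over all tested genes 2 (0.454%) passed the adjusted threshold and 25 the unadjusted one. This spread comes from the same 2 libraries that the test compares. Of the 30 members with a mean count of 100 or more, 6 (20.0%) differed by over 2-fold, against 16.9% of the 243 such genes in the table.

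Pairs that share a seed differed in level, and their ratios are given side by side, since the difference within a pair was not tested. Of the pair with GGUAGAC, Mir379 was higher in replicate 2, and Mir1193, with 93.6 and 53.9 CPM, was lower by a log2 ratio of -0.79 ± 0.12. Of the pair with UGGAUAU, Mir376c was higher, and Mir376b, with 32.6 and 31.3 CPM, did not pass the test (log2 ratio -0.06 ± 0.18). Of the pair with GGUUGUC, Mir494 was higher, and Mir410, a miRNA reported to promote heart muscle cell division, had 30.0 and 26.0 CPM and did not pass (log2 ratio -0.20 ± 0.19). Mir379 and Mir411, joined by AUGUAAC, were both higher. Mir1197 and Mir758, joined by GGUUGAC, were too low to test. Of the pair with GGUUGCC, Mir453 had 0 counts and Mir496a had 49.6 and 29.2 CPM, a log2 ratio of -0.74 ± 0.17.

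Pairs of relatives with different seeds were also unequal. Mir376a, at 287 and 343 CPM, had more reads than Mir376b in both libraries, and Mir381, at 458 and 100 CPM, more than Mir300, at 106 and 75.8 CPM. The ratio was -2.18 for Mir381 and -0.48 ± 0.11 for Mir300, both called lower by Fisher's exact test. Mir543 had 44.6 and 22.6 CPM. Mir495, another miRNA reported to promote heart muscle cell division, had 24.8 and 17.1 CPM, and both were called lower.

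Some members shared their seed with miRNAs outside the cluster. Of the 65 seeds 11 recurred there, and 5 of the outside genes had any counts. Mir1983, with the miR-412-3p seed UCACCUG, had 379 and 320 CPM, above the 35.3 and 36.3 CPM of Mir412. Mir672, with the miR-377-5p seed GAGGUUG, had 196 and 137 CPM, where Mir377 had 20.97 and 15.3 CPM. Mir362, with the miR-329-3p seed ACACACC, had 130 and 88.6 CPM, where Mir329 had 118 and 90.7 CPM. Mir370 of the upstream group, with the miR-1193-3p seed AGGUCAC, had 89.1 and 78.4 CPM. Mir299b, with the miR-299a-3p seed AUGUGGG, had 1 and 2 counts. By the arms with an entry, only Mir411 of the 5 most abundant members shared a seed with an outside gene. That gene, Mir7229, with the miR-411-5p seed AGUAGAC, had 0 counts in both libraries. Mir487b had no 3p entry to compare.

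The hairpins themselves hold letters that few other miRNA hairpins have. Runs of 8 letters were counted on each hairpin's own strand only, in the annotated hairpins of the tables, whose lengths vary. CGCUUUAU was in 6 of the 39 members (Mir411, Mir1197, Mir543, Mir154, Mir377 and Mir410) and in 0 of the 2163 other hairpins. GGUACUUG was in 6 members and 1 other hairpin, and UUCGCUUU, which can overlap CGCUUUAU, was likewise in 6 members and 1 other. UCAGUAUC was in 6 members and 4 others. Carriers of CGCUUUAU ranged from Mir1197 with 3 and 0 counts to Mir411 with 11991 and 15276. The levels of carriers and of other members were not compared. These runs were chosen as the most frequent ones in the members. The share of mature miRNAs that begin with U was 42.3% of the cluster's 71 and 41.2% of 1667 others.

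Sequence shared between hairpins can remove reads from single-gene counts. Windows of 20 bases shared with another annotated hairpin were found in 6 members (15.4%), against 49.2% of all hairpins. Mir376c shared 12 of its 67 windows with Mir376b, and Mir411 shared 2 of 63 with Mir758. Mir299a shared 4 with Mir299b, Mir376b 1 with Mir487b. Without these 6 members the cluster held 1.10% of sense counts. How many reads of these miRNAs lie among the multi-mapped ones was not tested. Loss of reads from CAST/EiJ alleles that differ from the mm10 sequence was not tested either.

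An annotated hairpin on the minus strand lies opposite 5 members: Mir299a, Mir380, Mir376a, Mir539 and Mir409. They had 6254 and 4660 sense counts, 9.43% and 7.13% of the cluster, but 1 and 3 counts in the column that ignores strand. The opposite hairpins had 1 and 2 counts (Mir299b) or 0 on their own strand. The other 34 members had equal counts in both columns. The column that ignores strand therefore misses these 5 members almost wholly.

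Marker miRNAs were measured alongside, since the cluster is expressed in several tissues. The heart muscle miRNAs Mir208a, Mir208b and Mir499 summed to 13054 and 8858 CPM, with all 3 detected. Neuronal miRNAs summed to 539 and 452 CPM over 12 genes, with the 3 genes of the neuron-defining miR-124 and Mir9-2 at 0 counts in both libraries. Mir128-1 made up most of that sum, with 331 and 252 CPM. Mir9-3 went the other way, with 1 count in replicate 1 and 82 in replicate 2. Its log2 ratio of 4.19 was the highest of all tested genes, and Mir9-1 had 0 and 2 counts. Multi-mapped reads are in none of these counts, so 0 counts for a miRNA that several genes make need not mean that it was absent. Skeletal muscle miRNAs summed to 34.1 and 40.0 CPM over 2 genes, and blood miRNAs to 645 and 728 CPM over 4. The largest shifts were in the fibroblast list, 6716 and 964 CPM with 1 of 3 genes at 0, the endothelial list, 109518 and 49773 CPM over 3 genes, and the smooth muscle list, 48576 and 79468 CPM over 2. The endothelial sum was lower through Mir126a, with a log2 ratio of -1.15, while Mir221 had 0.53 and Mir222 0.02. Fibroblast, endothelial, heart muscle and neuronal sums were thus lower in replicate 2, and smooth muscle, skeletal muscle and blood sums higher. By total counts 18 of the 33 tested members were lower (54.5%, against 36.5% of all tested genes) and 8 higher (24.2%, against 20.4%). Genes within a list could differ. In the blood list Mir142 had a log2 ratio of 0.63 and Mir223 of 0.39, but Mir144 had -0.87 and Mir451a 0.00048. In the skeletal muscle list Mir206 had 0.37 and Mir133b -1.02. The fibroblast sum was mostly Mir214, with 6683 and 941 CPM. All sums rest on total counts, and the upward shifts of 0.24 (TMM) and 0.31 (DESeq2) were not applied to them. The part of these cell types in the differences between members was not tested.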

How the data were processed

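The values deposited by the authors are unnormalized read counts per miRNA gene, in 1 table per library. Their description files name mm10 and GENCODE M21. The aligner is not given in the sources used here. Each table gives counts without regard to strand, on the gene's strand (sense) and on the opposite strand. The columns were assigned to strands from their values. Sense counts were used, 4196577 and 3801738 in all, 43.8% and 40.9% of the 9591115 and 9293203 reads accounted for. Multi-mapped, unmapped (14.1% and 13.1%) and unassigned reads (4.01% and 3.70%) name no gene and were left out.

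Counts were scaled to CPM, and log2 ratios use a pseudocount of 1 CPM. Genes with 10 or more counts over both libraries were tested with Fisher's exact test (SciPy 1.17.1, Python 3.11.15), Benjamini-Hochberg adjusted. TMM scaling and the exact test used edgeR 4.0.16 and size factors DESeq2 1.42.0, in R 4.3.3. With 1 group of 2 libraries, edgeR's quasi-likelihood test could not be fitted, and no replicate numbers pair samples across groups. The gene test was tested on simulated data. All p-values compare these 2 libraries only. Those of Fisher's and the binomial test allow for counting error alone, and edgeR's exact test adds a spread estimated from the same libraries.

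All 2202 gene IDs matched the annotation, from which positions, hosts and hairpins came. Copies of hairpin sequence outside annotated miRNA genes were not searched. Values in each library are given for the 10 members of highest mean CPM and for the 4 highest and 4 lowest ratios among members past the threshold whose mean count was 100 or more. They are also given for members of shared seed groups, members at 0 and the 3 most abundant upstream genes. Other members were named for sequence, and the 8-letter runs after their counts were seen. The members, lists and tests were chosen with earlier results of these data known. Alternatives covered scaling, count minimum, pseudocount, strand, denominator, shared windows, the test and leaving out each library.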

Additional observations from a re-analysis of the deposited data

How the results depend on the processing

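Fisher's exact test called 26 of the 33 tested members (78.8%, against 56.9% of all tested genes). Scaling and count minimum kept this count within 1.5 times. With edgeR's exact test 0 members passed, against 0.454% of all tested genes. With DESeq2's size factors 11 members were lower in replicate 2 (33.3%, against 23.6% of all tested genes). With counts that ignore strand 5 of 28 members were higher, and the share over all genes was not computed. The median log2 ratio of members was -0.16 with TMM and -0.094 with DESeq2. The share of counts was 1.97% of counts that ignore strand, 0.697% of all reads and 1.10% over hairpins with no shared window; with each library left out it was 1.58% to 1.72%, and 33 members had 10 or more counts. The log2 ratio of the summed counts was -0.18 without Mir379, Mir411 and Mir541, 0.36 with TMM, 0.43 with DESeq2 and 0.044 with counts that ignore strand, settings chosen after seeing the data. The cause of these changes was not tested.

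Single members also changed sign. With TMM the log2 ratios were 0.18 for Mir376b, 0.054 for Mir134, 0.14 for Mir369 and 0.038 for Mir410. With DESeq2 they were 0.24, 0.12, 0.20 and 0.10 for these, and 0.043 for Mir667. With the cluster's sum as library size they were -0.019 for Mir382, -0.11 for Mir541 and -0.076 for Mir412, and with counts that ignore strand -0.011, -0.11 and -0.069. The 5 members opposite another hairpin give no ratio on those counts. No paired analysis was possible because both libraries belong to 1 group. With 1 library per animal, spread between animals and spread between library preparations cannot be told apart, and genes under 10 counts over both libraries were not tested.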
